A study of Mus musculus with 72 samples.

Results

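H3K27me1, the monomethyl form of lysine 27 of histone H3, was called different at sites in the nucleus accumbens of mice after 2 kinds of stress, and the sites described here are those where the calls of the 2 cohorts lay side by side. They were the autosomal H3K27me1 sites of the early life stress comparison that lay within 1000 bases of a site of either chronic defeat comparison. The rule kept 325 of 9365 autosomal early life stress sites (10234 with the sex and other chromosomes), or 3.47%. Of the 325 sites, 244 lay near a susceptible site, 112 near a resilient site and 31 near both. From the other side, 245 of 12124 susceptible sites (2.02%) and 110 of 7011 resilient sites (1.57%) had such a neighbour. Since every site had been selected on the contrasts described here, all values below are descriptions and no test was made on them.

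All animals were wildtype adult male mice, and 18 H3K27me1 libraries made by CUT&RUN, in which an antibody-tethered nuclease cuts out the DNA beside a chromatin mark, entered the comparisons. The early life stress contrast set 3 libraries of mice with early life stress followed by subthreshold defeat (SbD, a brief form of social defeat) against 3 libraries of standard-reared mice without defeat. Rearing and adult defeat changed together in that contrast, so their parts cannot be told apart, and the other rearing groups were not analysed here. In the separate chronic social defeat stress (CSDS) cohort, repeated defeat was followed by a division into susceptible (4 libraries) and resilient mice (4 libraries), each set against the same 4 control libraries; values for the susceptible and resilient groups therefore share controls. The labels give neither ages, nor whether animals were pooled, nor whether each library came from a separate animal. Per the file headers, depth was 5.0 to 7.78 reads per 1000-base bin in the early life stress libraries and 20.57 to 30.39 in the CSDS libraries.

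Methylation of H3 lysine 27 is laid down stepwise by Polycomb repressive complex 2. The trimethyl form marks silenced developmental genes, the dimethyl form covers much of the inactive genome, and the monomethyl form is best known from the bodies of transcribed genes. The nucleus accumbens belongs to the ventral striatum, takes part in reward and motivated behaviour, is made up mostly of GABAergic medium spiny neurons, and is studied widely in social defeat. Different sites in this tissue can come from any of its cell types, and a change in the cell mixture and a change in the mark within cells cannot be told apart in bulk tissue. The labelled tissue was not checked against marker genes, since the tables hold chromatin sites and no expression values.

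Most of the sites lay inside genes, but at 3 protein-coding genes an early life stress site touched the bases just before a transcription start, and these promoters are shown because they include both a same-way and an opposite pair. The paired CSDS site touched these bases at Hibch alone, and at Gon4l and Ampd2 it lay beside them. They were chosen after their values were seen, and Duxf3, a multicopy gene whose early life stress change was near 0, is left out. The sequences are from RefSeq (GRCm38.p6), run 5′ to 3′ on the gene's strand over the 250 bases before the start, and carry each CG dinucleotide in capitals (CG reads the same on both strands).
Hibch, chr1:52844788-52845037, plus strand: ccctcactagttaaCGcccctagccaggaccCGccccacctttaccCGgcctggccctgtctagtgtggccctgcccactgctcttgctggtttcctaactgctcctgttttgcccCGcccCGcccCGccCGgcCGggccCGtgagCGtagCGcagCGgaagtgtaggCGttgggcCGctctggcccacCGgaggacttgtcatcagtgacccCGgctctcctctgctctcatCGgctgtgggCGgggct
Gon4l, chr3:88834981-88835230, plus strand: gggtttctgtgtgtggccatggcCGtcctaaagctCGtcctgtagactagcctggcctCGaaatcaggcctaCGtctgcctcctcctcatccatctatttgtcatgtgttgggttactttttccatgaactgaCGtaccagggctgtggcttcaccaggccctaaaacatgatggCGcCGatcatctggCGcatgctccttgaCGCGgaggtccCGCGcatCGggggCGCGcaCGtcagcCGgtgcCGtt
Ampd2, chr3:108085403-108085652, minus strand: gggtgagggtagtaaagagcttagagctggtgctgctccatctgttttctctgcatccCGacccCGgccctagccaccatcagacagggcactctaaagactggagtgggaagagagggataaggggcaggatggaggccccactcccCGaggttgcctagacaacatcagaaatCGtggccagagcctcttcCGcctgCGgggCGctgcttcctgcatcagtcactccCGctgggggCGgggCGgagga
Hibch and Gon4l held 18 CG each and Ampd2 held 10, or 8 in the window of its other RefSeq start (108085427 to 108085676), where the median of 31396 autosomal RefSeq windows of the same length was 6. At least 1 CG occurred in 92.4% of those windows, 10 or more in 38.3% and 18 or more in 22.2%.

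Normalised H3K27me1 reads at the Hibch site (a mitochondrial enzyme of valine breakdown; chromosome 1, 52844801 to 52845900) were 77.98, 87.72 and 85.22 in the stressed libraries of the early life cohort and 56.32, 46.65 and 53.18 in its controls. At the overlapping CSDS site the susceptible libraries held 85.94, 70.44, 89.54 and 82.07 reads and the controls 54.25, 33.41, 75.73 and 64.80. H3K27me1 was thus on the higher side in both cohorts, by 0.68 and 0.52 on the log2 scale, with 1 CSDS control inside the susceptible range. Gon4l, a nuclear cofactor of transcriptional repression, went opposite ways. Its early life stress site (chromosome 3, 88834901 to 88835900) held 36.70, 45.72 and 89.54 reads against 24.70, 25.27 and 35.74 in controls, a log2 ratio of 1.0 to which library 48 contributed most. The susceptible site beside it, at 88836601 to 88838000, held 85.94, 68.63, 98.01 and 80.25 against 119.53, 101.39, 107.73 and 131.37 reads, a log2 ratio of -0.47. No stressed library overlapped a control in either cohort. Ampd2, an AMP deaminase of purine metabolism, was higher after early life stress (83.72, 55.99 and 76.59 against 37.54, 35.96 and 47.95 reads, log2 ratio 0.83) and in resilient mice. There the neighbouring site, at 108083201 to 108084200, held 121.74, 96.43, 81.34 and 112.72 reads against 60.35, 60.44, 105.77 and 72.68, a log2 ratio of 0.46 with 1 control among the resilient values. In the authors' deposited table the early life stress sites of Hibch (enrichment over IgG 0.71 in stressed and 0.37 in control libraries) and Gon4l (0.71 and 0.30) lay below the antibody background in both groups, and that of Ampd2 stood at 1.18 and 0.73. The enrichment in the same table was 1.0 and 0.33 at the CSDS site of Hibch, 1.45 and 2.14 at that of Gon4l and 1.87 and 1.92 at that of Ampd2, so at the last the resilient group was higher in reads but not in enrichment.

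The neighbouring sites differed from the other early life stress sites in position, level and direction, all as counts over sites chosen by the rule. In direction, 136 of the 325 sites (41.8%) were higher and 189 lower after early life stress, where 69.1% of all autosomal early life stress sites were higher. Changes were smaller, with median log2 ratios of 0.66 at higher and -0.68 at lower sites, against 0.98 and -0.96 at the other 9040 sites. An adjusted p under 0.05 in the authors' deposited table was held by 297 of the 325 sites, against 96.7% of all early life stress sites (100% of susceptible and 99.9% of resilient sites, rounded). The early life groups of libraries did not overlap at 285 sites (87.7%), where the share among all sites was 98.8%.

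By position, 248 of the 325 sites (76.3%) lay in a protein-coding gene, against 46.1% of the other sites. There were 168 within introns only, 80 touching an annotated exon and 77 between genes. The sites in genes lay in 220 genes. Over these sites, with a gene counted once for each site, the median gene length was 112.6 kb, against 166.7 kb over the other early life stress sites in genes. Only 11 sites (3.38%) came within 1000 bases of a transcription start, a share close to the 3.90% of the other sites. H3K27me1 levels also differed: control libraries held a median of 96.1 reads at the neighbouring and 26.8 at the other sites, and the authors' enrichment over the IgG antibody background was 2.26 and 0.76. An enrichment below 1 in both groups was found at 9 neighbouring sites (2.77%) and at 2203 of the other sites (24.4%). The CSDS libraries were sequenced more deeply than the early life stress libraries, and the part of depth in which sites had a neighbour was not tested.

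The 325 sites made 375 pairs with CSDS sites, 261 with susceptible and 114 with resilient sites. Across the susceptible pairs the cohorts differed in direction more often than they shared it: 90 pairs (34.5%) changed the same way and 171 (65.5%) opposite ways. The largest class was lower after early life stress and higher in susceptible mice (100 pairs), followed by higher after early life stress and lower in susceptible mice (71), lower in both (66) and higher in both (24). Beside them, 50.3% of all autosomal susceptible sites were higher and 49.7% lower, as were 51.6% and 48.4% of resilient sites. Where H3K27me1 was lower after early life stress, 60.2% of 166 susceptible neighbours were higher, and where it was higher, 25.3% of 95 were.

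**Figure D1:**
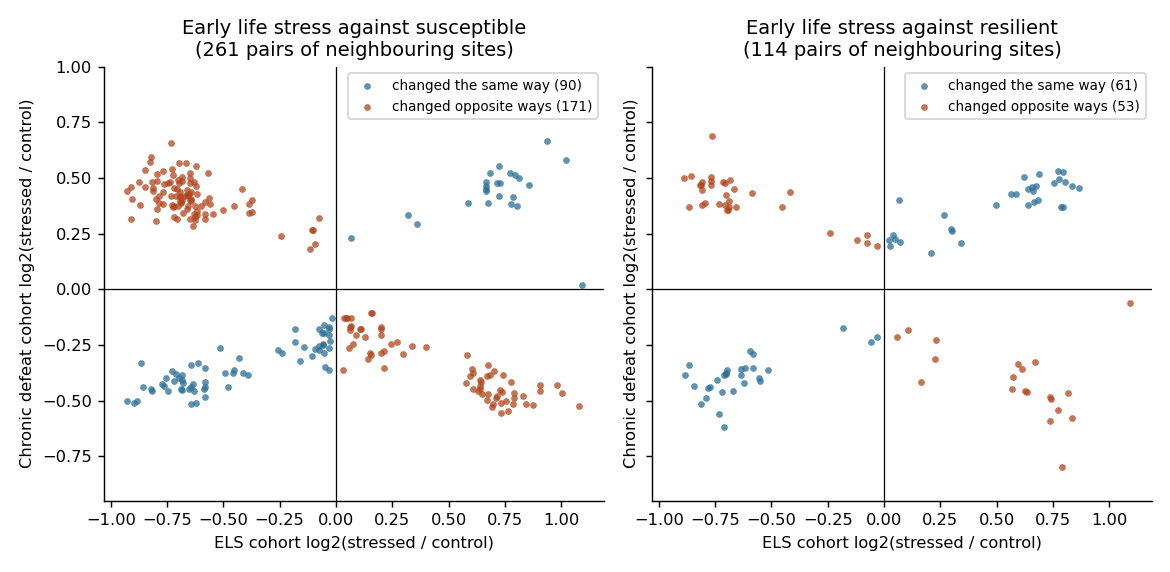
Log2 ratio of stressed over control H3K27me1 in the early life stress (ELS) cohort (x axis) against the CSDS cohort (y axis), 1 point per pair of neighbouring sites, for 261 susceptible pairs (left) and 114 resilient pairs (right). The upper left quadrant, lower after early life stress and higher in susceptible mice, is the fullest with 100 pairs, while the resilient points spread more evenly over the 4 quadrants.

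Resilient pairs were near an even division. There 61 pairs (53.5%) changed the same way and 53 opposite ways, with 32 higher in both, 29 lower in both, 33 lower after early life stress and higher in resilient mice, and 20 the reverse. Whether the susceptible and resilient shares differ was not tested, as both rest on the same early life stress sites and the same CSDS controls. The 114 susceptible pairs in which no stressed library overlapped a control in either cohort comprised 35 same-way and 79 opposite pairs. The 48 such resilient pairs comprised 24 of each kind. Taken over single tables, groups of libraries did not overlap at 52.8% of all susceptible and 54.7% of all resilient sites. Counted by gene, 220 genes held pairs; 72 had same-way pairs alone, 134 opposite pairs alone and 14 both kinds. Among the 159 genes with susceptible pairs these counts were 46, 104 and 9, and among the 84 with resilient pairs 37, 43 and 4.

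Overlapping and adjacent pairs were also counted apart. In the 144 susceptible pairs whose sites overlapped, 38 (26.4%) changed the same way, and in the 117 that were adjacent without overlap 52 did (44.4%). Beyond the 1000-base limit the share was 23.7% at 1000 to 2000 bases and between 39.1% and 43.4% in the classes from there to 100000 bases. The resilient share lay between 44.2% and 55.1% in all distance classes and was 52.6% for overlapping sites. Just inside the limit, at 800 to 1000 bases, 17 of 38 susceptible pairs and 10 of 13 resilient pairs went the same way, and just outside, at 1001 to 1100 bases, 1 of 8 and 2 of 5 did.

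**Figure D2:**
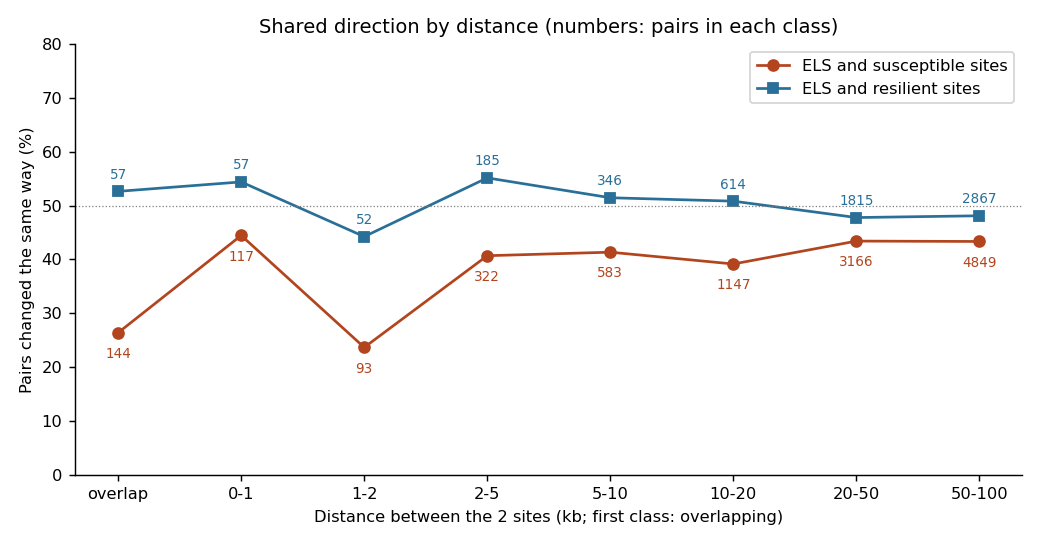
Share of pairs changed the same way (y axis, percent) by distance between the early life stress site and the CSDS site (x axis, kilobases), for susceptible (circles) and resilient (squares) sites, with the number of pairs at each point. Overlapping susceptible pairs shared a direction in 26.4% of cases, overlapping resilient pairs in 52.6%.

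Direction moved with the base composition of the gene in all 3 tables. Over all autosomal sites in genes, sorted into 5 classes by the GC content of the gene's longest coding transcript, the share of sites higher after early life stress was 47.9% in the most AT-rich class (32.2 to 43.1% GC) and 82.9% in the most GC-rich (54 to 67.7%). In susceptible mice it was 81.2% and 9.09% in the same classes, the reverse order, and in resilient mice 56.1% and 35.5%. Within each of the 5 classes the susceptible pairs shared a direction in 27.3% to 36.8% of cases. Directions were uneven within classes too. Of 28 susceptible pairs in the most GC-rich class, 18 were higher after early life stress and 2 in susceptible mice. Of 52 in the most AT-rich class, 9 and 39 were. Of 33 in the class of 46.6 to 49.8% GC, 10 and 20 were, and of 19 in the class of 49.8 to 54% GC, 10 and 4 were. Uneven shares affect the same-way share, and their part in the shares within classes was not tested. The part of base composition, read depth or library preparation in these directions was not tested.

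**Figure D3:**
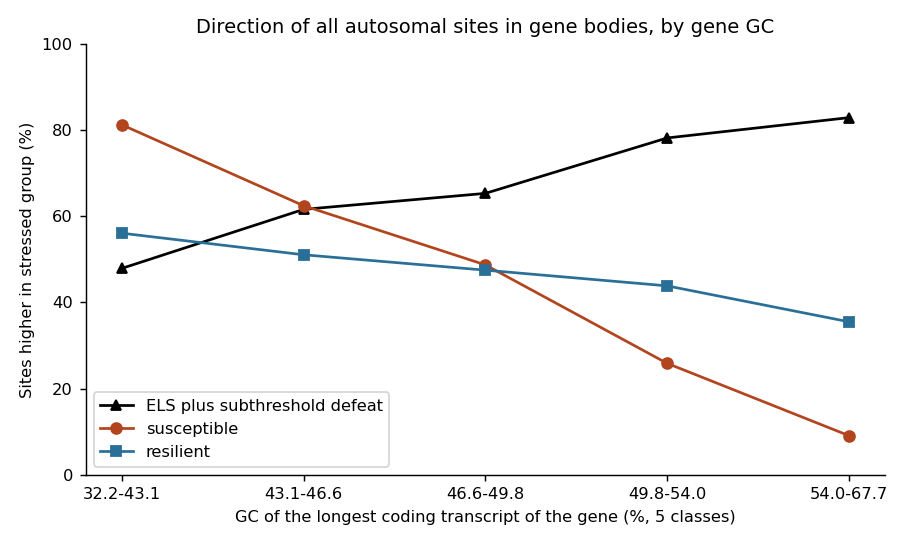
Share of all autosomal H3K27me1 sites in gene bodies that were higher in the stressed group (y axis, percent) by GC content of the gene's longest coding transcript (x axis, 5 classes), for the early life stress (triangles), susceptible (circles) and resilient (squares) tables. From the first to the last class the early life stress share goes from 47.9% to 82.9% and the susceptible share from 81.2% to 9.09%.

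The 4 classes of susceptible pairs sat in different kinds of sequence. Of the 100 pairs lower after early life stress and higher in susceptible mice, 71 were intronic, 14 exonic and 15 intergenic, in genes with a median length of 189 kb and a transcript GC of 44.2%. Those with the reverse directions were in 23 cases exonic, in 17 intronic and in 31 intergenic, in genes of 74.3 kb and 53.05% GC. Pairs lower in both cohorts were exonic in 28, intronic in 15 and intergenic in 23 cases (69.1 kb, 46.8% GC). Pairs higher in both were intronic in 17 of 24 cases, in genes of 428 kb. Lengths here are medians over pairs, with a gene counted once for each pair, and GC is the median over genes.

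**Figure D4:**
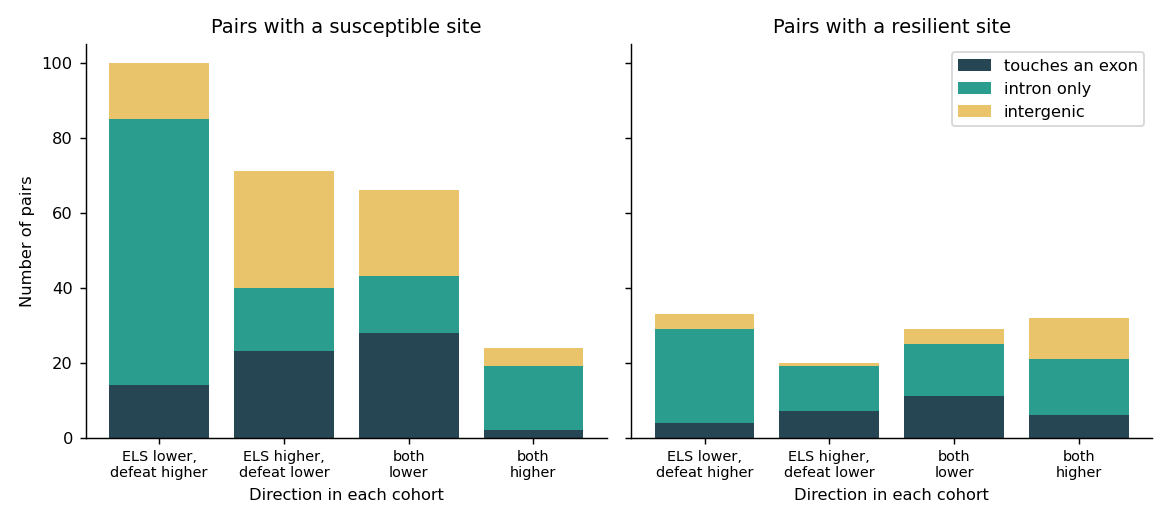
Number of pairs (y axis) in each class of directions (x axis), divided by whether the early life stress site touches an exon, lies within an intron only or is intergenic, for susceptible (left) and resilient (right) pairs. The tallest bar, lower after early life stress and higher in susceptible mice, holds 71 intronic pairs of 100.

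Named genes follow, in the order of the 4 classes. In each sentence, log2 ratios are of group means, stressed over control, with the standard error (SE) of the difference of mean log2 reads over libraries, and reads are the authors' normalised reads in a site. Lower H3K27me1 after early life stress beside higher H3K27me1 in CSDS mice was found at several genes of the synaptic lists. Genes given without an SE were chosen after their values were seen. Nlgn1, a postsynaptic adhesion protein that binds neurexins, carried an intronic pair on chromosome 3 (early life stress site 25466001 to 25467100, susceptible site 25466401 to 25467400). Reads were 86.01, 78.38 and 73.36 after early life stress against 118.56, 131.20 and 121.18 in controls (79.2 ± 6.37 and 124 ± 6.67, SD, n = 3 each), a log2 ratio of -0.64 ± 0.08. Susceptible libraries held 132.37, 128.23, 124.63 and 110.34 reads against 92.87, 96.78, 81.07 and 102.96 (124 ± 9.57 and 93.4 ± 9.22, SD, n = 4 each), a ratio of 0.41 ± 0.09. No stressed library overlapped a control in either cohort.

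Pcdh17, a protocadherin of corticostriatal circuits, held 95.18, 75.58 and 76.59 reads after early life stress against 124.49, 137.03 and 121.18 (log2 ratio -0.63 ± 0.12) at its intronic site on chromosome 14, 84496701 to 84497900. Its neighbour at 84498201 to 84501600 held 311.18, 363.03, 295.24 and 342.87 in susceptible and 213.32, 262.68, 234.67 and 229.89 in control libraries (0.48 ± 0.09). Both sets of libraries were fully separated, in opposite directions. All 3 Pcdh17 pairs had these directions, and the CSDS groups overlapped at 1 of the 3. Lrrc4c, which encodes a netrin-G ligand, read 55.05, 44.79 and 32.36 against 77.06, 78.72 and 72.36 in the early life cohort (-0.79 ± 0.23). In susceptible mice it read 107.68, 131.85, 105.27 and 89.36 against 92.87, 82.95, 91.73 and 57.70 (0.42 ± 0.20), where 1 susceptible library fell among the controls.

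Of the pairs at receptor genes, 5 of 7 susceptible pairs of the glutamate receptor list and 2 of 3 of the GABA list were lower after early life stress and higher in susceptible mice. The others were higher in both cohorts. Among the 5, the early life stress site of Grm7 had an authors' adjusted p of 0.074 (negative binomial test). Over all 187 susceptible pairs in genes, 85 had these opposite directions, and 125 were opposite in either order. Gria4, an AMPA receptor subunit (intron, chromosome 9, 4780501 to 4781600), held 67.66, 65.32 and 74.44 reads after early life stress against 114.61, 101.07 and 109.84, a log2 ratio of -0.65 ± 0.08. Its susceptible neighbour held 149.17, 160.74, 121.00 and 106.69 against 88.27, 94.47, 90.67 and 106.51, a ratio of 0.50 ± 0.15. The groups were apart in both cohorts, though the lowest susceptible and the highest control library of Gria4 nearly met. Grm3, a presynaptic and glial metabotropic glutamate receptor, read 64.22, 38.26 and 42.07 against 81.02, 84.55 and 88.05 (-0.81 ± 0.23), and 126.45, 124.62, 108.90 and 134.05 against 94.71, 99.08, 71.47 and 94.98 in susceptible mice (0.46 ± 0.13). Library 31 was the low control there, and all 4 susceptible libraries were above all controls.

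Gabra2, a GABA-A receptor alpha subunit (intron, chromosome 5, 71018101 to 71019400), read 86.01, 85.85 and 70.12 after early life stress against 120.54, 148.69 and 109.84, a log2 ratio of -0.65 ± 0.16. In susceptible mice the neighbouring site held 167.94, 196.86, 125.84 and 165.05 reads against 117.70, 134.80, 103.47 and 100.30 (0.52 ± 0.17), with 1 susceptible library below the highest control. Gabrb1, a beta subunit, was the member of the family that was higher in both cohorts (0.67 ± 0.12 and 0.46 ± 0.13). Kctd8, an auxiliary subunit of GABA-B receptors, had 3 pairs lower after early life stress (-0.82 to -0.70) and higher in susceptible mice (0.38 to 0.59). Its CSDS groups were apart at only 1 of 3 sites. Adgrb3, an adhesion G protein-coupled receptor for C1q-like proteins, also had 3, at -0.67 to -0.56 and 0.37 to 0.42, with the CSDS groups apart at 2 of 3 sites.

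The lists of synaptic genes can be counted as a whole. Of all 21951 protein-coding genes 220 held a pair (1.0%), at a median gene length of 17.4 kb. Of 64 synaptic adhesion genes (421 kb), 13 held pairs (20.3%); the part of gene length in this share was not tested. Of their 12 susceptible pairs 10 were opposite, 9 of them lower after early life stress and higher in susceptible mice. Their 5 resilient pairs were of the same way in 4 cases, where 46 of all 94 resilient pairs in genes were: Adgrl2, a latrophilin (-0.89 and -0.39), Cntn4, a contactin (-0.81 and -0.52), and Pcdh9, a protocadherin (-0.70 and -0.38), were lower in both cohorts, and Cntnap5a was higher in both. Ptprd, a receptor phosphatase that organises synapses, was the opposite resilient pair (-0.68 and 0.49). Of 22 glutamate receptor genes (386 kb), 6 held pairs, with 5 of 7 susceptible pairs opposite and the only resilient pair, in Grid1, of the same way. Of 18 genes of GABA receptors and synthesis (91.1 kb), 3 held pairs, 2 opposite and 1 of the same way. The medians of these lists are not given, since so few members carried a pair, and over all susceptible pairs in genes 125 of 187 were opposite.

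**Figure D5:**
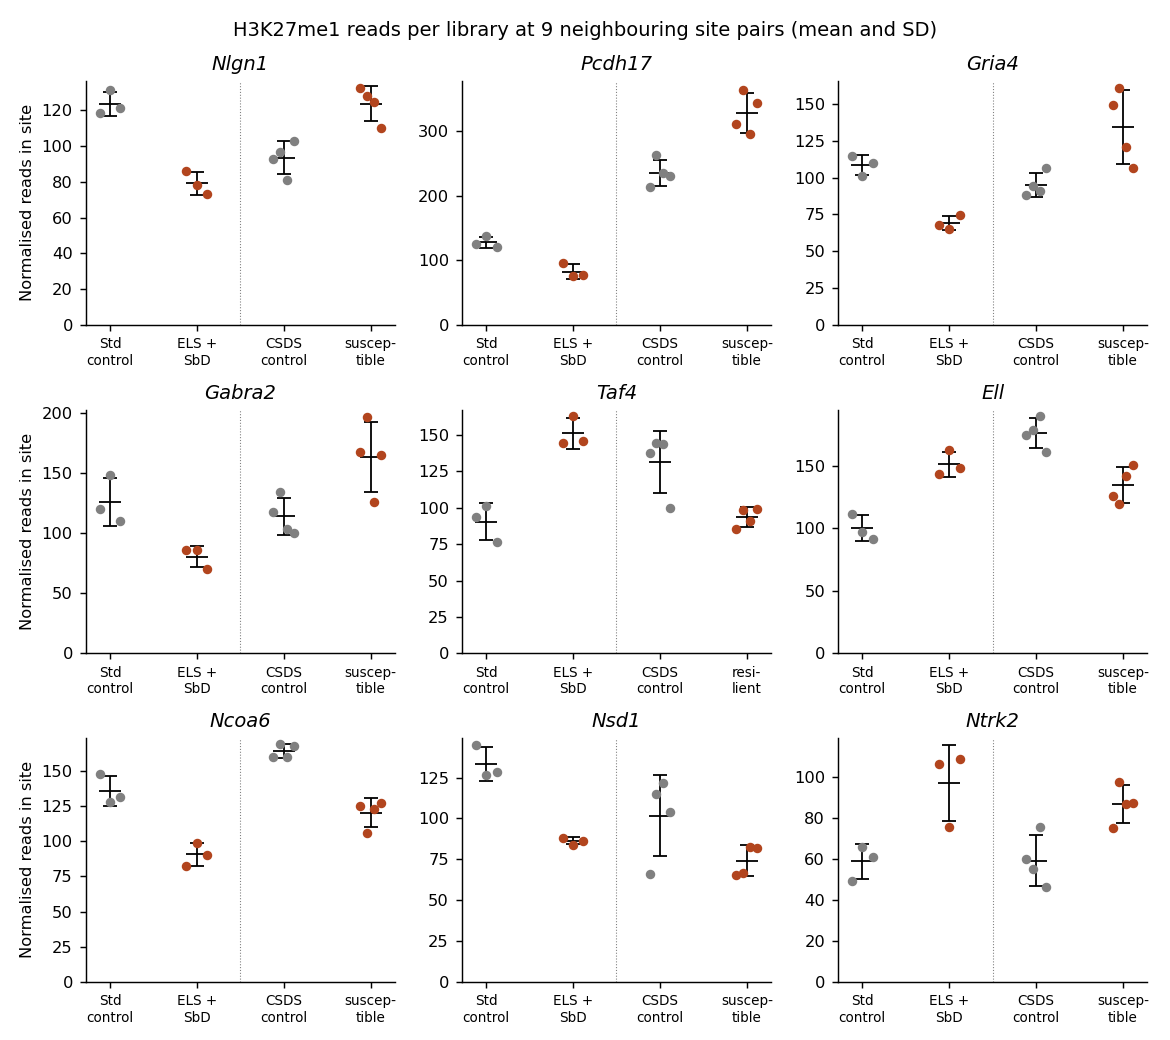
Normalised H3K27me1 reads in each library (points) with group means and SD (lines), for controls (grey) and stressed libraries (red) of the early life stress cohort (left of the dotted line) and the CSDS cohort (right), at 9 pairs of sites. Nlgn1, Pcdh17, Gria4 and Gabra2 are lower in stressed than control libraries on the left and higher on the right, Taf4 and Ell do the reverse, Ncoa6 and Nsd1 are lower in both, and Ntrk2 is higher in both; levels should not be compared across the dotted line, since the sites and depth differ.

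Among ion channel genes 2 of 43 held a pair, both for calcium channel auxiliary subunits. Cacnb2 gave -0.91 ± 0.16 after early life stress and 0.32 ± 0.12 in susceptible mice, and Cacna2d1, the gabapentin-binding subunit, -0.67 ± 0.12 and 0.45 ± 0.28 in resilient mice, where the groups overlapped. At the Cacnb2 site the authors' deposited table gives an enrichment over IgG of 0.54 and 0.91 in the early life groups, below the background level. Outside the synapse, the same pair of directions was found at Nipbl, which loads cohesin onto DNA (-0.65 ± 0.13 and 0.43 ± 0.13, all groups apart), at Ctcf, the insulator factor that stops cohesin (-0.37 and 0.35), and at Stag1, a cohesin subunit. Genes of cohesin did not all have these directions. Esco1 was lower after early life stress (-0.69) and also lower in susceptible (-0.40) and resilient mice (-0.36). Mycbp2, a ubiquitin ligase of axon growth, gave -0.37 ± 0.07 and 0.40 ± 0.22, Csmd3, a large complement-domain membrane protein, -0.38 ± 0.09 and 0.34 ± 0.10, and Ppp1r9a, the actin scaffold neurabin, -0.69 ± 0.13 and 0.44 ± 0.16. The CSDS groups overlapped at Mycbp2 and at Ppp1r9a. At the early life stress site of Csmd3 the authors' enrichment over IgG was 3.50 in stressed and 3.45 in control libraries, not lower as in reads. Ube2w, a ubiquitin-conjugating enzyme, gave -0.45 ± 0.08 and 0.37 ± 0.08, but a susceptible site on the other side of the same early life stress site was lower (-0.36 ± 0.06), with the groups apart at all 3 sites. Pik3c2a, a lipid kinase of membrane traffic, gave -0.42 ± 0.07 and 0.45 ± 0.10. Its susceptible site was higher in reads but not in the authors' enrichment over IgG (3.28 in susceptible and 3.44 in control libraries). Alcam, a cell adhesion molecule of axon growth, led the resilient pairs of this class. It held 94.04, 95.18 and 70.12 reads against 142.27, 138.98 and 160.41 in the early life cohort (-0.77 ± 0.16), and 148.13, 222.80, 128.38 and 149.33 against 104.67, 116.15, 136.30 and 99.93 in resilient mice (0.51 ± 0.20), where library 33 lay below the highest control.

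Other genes with susceptible pairs of this class, 74 in all, included Nrxn3, Cntn5, Cntnap2 and Lrfn5 of synaptic adhesion, Grik2, Grm7 and Grid1 among glutamate receptors, and Syndig1 and Lin7a of the postsynaptic membrane. Map2 and Macf1 of the neuronal cytoskeleton, Lrp6 and Ctnnd2 of Wnt and catenin signalling, the splicing regulator Nova1, the RNA-binding proteins Fxr1 and Ythdf3, and the chromatin and transcription factors Mbd5, Phf14, Tbl1xr1 and Trps1 were also among them. The early life stress sites of Macf1 and Grm7 had an authors' adjusted p above 0.05 (0.276 and 0.074, negative binomial test). The 28 genes with resilient pairs of the class included Gpr158, Magi2 and Fmn2 of synapses and actin, Kansl1 and Rfx7 of the nucleus, and the vesicle gene Vps13b. Vps13b, Eml5, Orc3, Pik3c2a, Ppp2r5e, Trim44 and Wnk1 were in this class with both susceptible and resilient mice, whose controls are shared.

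Higher H3K27me1 after early life stress beside lower H3K27me1 in CSDS mice was found in shorter and more GC-rich genes than the class before it. Taf4, a scaffold subunit of transcription factor TFIID, held 144.49, 163.30 and 145.64 reads after early life stress against 93.86, 101.07 and 76.72 in controls (151 ± 10.5 and 90.5 ± 12.5, SD, n = 3 each) at a site touching an exon (chromosome 2, 179920501 to 179922200), a log2 ratio of 0.74 ± 0.13. In resilient mice the site at 179918601 to 179919900 held 85.13, 98.65, 91.14 and 99.23 reads against 137.67, 144.59, 143.93 and 99.93, a ratio of -0.49 ± 0.14. Control library 34 lay just above the resilient libraries and far below the other controls. Ell, an elongation factor of RNA polymerase II (chromosome 8, 70580001 to 70581600), read 143.35, 162.37 and 147.80 against 111.65, 97.19 and 91.54 in the early life cohort (0.59 ± 0.10). Susceptible libraries held 125.46, 119.20, 141.57 and 150.46 against 174.70, 178.58, 189.87 and 160.66 (-0.39 ± 0.09), and the groups were apart in both cohorts.

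Dpp7, a lysosomal dipeptidase, read 136.47, 133.44 and 137.01 against 95.84, 94.27 and 76.72 after early life stress (0.61 ± 0.10) and 63.22, 70.44, 89.54 and 77.51 against 96.55, 106.00, 119.47 and 87.87 in susceptible mice (-0.45 ± 0.14), where library 32 overlapped the lowest control. Rfc1, the large subunit of the replication clamp loader, gave 0.58 ± 0.05 and -0.30 ± 0.10, with the early life groups apart and the CSDS groups overlapping by 1 library. Negr1, an adhesion protein of the IgLON family, was the only gene of the synaptic adhesion list in this class. It read 28.67, 34.53 and 38.84 against 11.86, 15.55 and 20.92 after early life stress (1.08 ± 0.27), and 48.41, 46.06, 64.13 and 56.54 against 65.28, 78.34, 83.20 and 82.55 in susceptible mice (-0.52 ± 0.14). Its groups did not overlap, but its early life control reads stood at an enrichment over IgG of 0.30 in the authors' deposited table. Of the 39 genes in this class with susceptible pairs, Rptor and Slc38a9 belong to amino acid sensing by mTORC1, Npc1 to lysosomal cholesterol export, Rhot1 to mitochondrial transport, and Shank2 (0.65 and -0.47) to the postsynaptic scaffold. The early life stress site of Rptor had an authors' adjusted p of 0.052 (negative binomial test). Sos1, the Ras exchange factor, and Ell were in the class with resilient as well as susceptible mice.

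By the authors' adjusted p, the pairs lower in both cohorts were led by Duxf3, whose early life stress ratio was -0.03 and whose libraries overlapped, followed by Ncoa6, Btaf1, Drg1 and Ide. Ncoa6, a nuclear receptor coactivator, held 82.57, 98.91 and 90.62 reads after early life stress against 148.20, 128.29 and 131.64 (90.7 ± 8.17 and 136 ± 10.7, SD, n = 3 each; chromosome 2, 155418601 to 155419900). Susceptible libraries held 125.46, 105.66, 123.42 and 127.66 against 159.99, 169.36, 160.00 and 167.76 (121 ± 10.1 and 164 ± 4.99, SD, n = 4 each). The log2 ratios were -0.58 ± 0.10 and -0.45 ± 0.07, with all stressed libraries below all controls in both cohorts. Btaf1, an ATPase that removes TATA-binding protein from DNA, gave -0.58 ± 0.10 and -0.35 ± 0.16 at its leading pair, and all 3 of its pairs, 1 susceptible and 2 resilient, were lower. Phf20l1, a reader of methylated lysine, gave -0.52 ± 0.08 and -0.26 ± 0.10, and Kdm2a, a demethylase of H3 lysine 36, gave -0.77 and -0.43.

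Polycomb and H3K27 methylation genes held 2 pairs among 29 listed genes, both lower in both cohorts. Nsd1, a methyltransferase of H3 lysine 36, read 88.30, 83.98 and 86.30 against 145.24, 126.34 and 128.15 after early life stress (-0.63 ± 0.07; chromosome 13, 55268201 to 55269700). Its susceptible neighbour read 65.20, 66.83, 82.28 and 82.07 against 66.20, 115.21, 121.60 and 103.85 (-0.46 ± 0.22), where control library 25 lay within the susceptible range. Aebp2, an accessory subunit of Polycomb repressive complex 2, read 73.39, 55.06 and 61.49 against 101.77, 96.21 and 94.15 after early life stress (-0.62 ± 0.13). In resilient mice it read 128.55, 115.28, 112.70 and 130.06 against 161.24, 152.89, 171.19 and 167.16 (-0.42 ± 0.06), and its groups did not overlap in either cohort. A site between genes nearest to Ezh2, the methyltransferase of the complex, was lower in both cohorts too, but with an early life stress ratio of only -0.05 and overlapping libraries.

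Ide, the insulin-degrading enzyme, held the most pairs of any gene, 8 from 6 early life stress sites between 37269601 and 37329100 on chromosome 19. All 8 were lower in both cohorts, 5 with susceptible and 3 with resilient sites, at early life stress ratios of -0.85 to -0.48 and CSDS ratios of -0.62 to -0.36. At the leading site (37283101 to 37284900) reads were 103.21, 88.65 and 100.33 after early life stress against 149.19, 152.58 and 179.58, a log2 ratio of -0.72 ± 0.11. Susceptible libraries there held 130.40, 129.14, 89.54 and 115.81 against 145.28, 133.65, 172.80 and 167.76 (-0.41 ± 0.15). The early life groups did not overlap at any of the 6 Ide sites, and the CSDS groups did not at 5 of 7. Other genes lower in both included the glycine receptor beta subunit Glrb (3 pairs, -0.87 to -0.74 after early life stress, CSDS groups apart at 1 of 3 sites), the RNA polymerase III subunits and factors Polr3a and Bdp1, the histone acetylation adaptor Tada2a and the deubiquitinase Usp34. With resilient mice they included Setd5 (-0.73 and -0.56), a SET-domain protein of chromatin, and Atr, a kinase of the DNA damage response.

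Higher H3K27me1 in both cohorts was the rarest combination among susceptible pairs, with 24. Ntrk2, the BDNF receptor TrkB and the only one of 25 stress hormone and neurotrophin genes with a pair, read 106.65, 75.58 and 108.96 after early life stress against 49.40, 66.09 and 61.02 in controls (intron, chromosome 13, 59111301 to 59112400), a log2 ratio of 0.72 ± 0.21. Susceptible libraries held 75.08, 97.53, 87.12 and 87.54 against 59.77, 55.30, 75.73 and 46.16 (0.55 ± 0.17), with 1 susceptible library just below the highest control. Pclo, the active zone scaffold piccolo, read 180.04, 158.63 and 172.61 against 137.33, 142.86 and 129.89 (0.32 ± 0.07), and 171.89, 196.86, 193.60 and 188.76 against 135.17, 148.62, 144.00 and 168.65 in susceptible mice (0.33 ± 0.08), with all groups apart.

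Fyn, a Src-family kinase of NMDA receptor signalling, was higher after early life stress (107.80, 93.31 and 108.96 against 68.17, 63.17 and 64.51 reads, 0.66 ± 0.08) and in resilient mice (91.09, 92.00, 98.00 and 107.90 against 84.87, 59.26, 79.60 and 62.68, 0.44 ± 0.14). Its groups did not overlap in either cohort. Plcb1, a phospholipase of Gq signalling, gave 0.59 ± 0.14 and 0.39 ± 0.16 with susceptible mice, and Mbd5, a methyl-CpG-binding domain protein, 0.36 ± 0.08 and 0.29 ± 0.06. Tulp4 (0.69 ± 0.10 and 0.52 ± 0.11) and Garem1, an adaptor of growth factor signalling (0.62 ± 0.10 and 0.50 ± 0.10), were higher with resilient mice, all groups apart. At the resilient site of Tulp4, however, the authors' enrichment over IgG was 1.73 in resilient and in control libraries alike. Further genes higher in both were Grin2a, an NMDA receptor subunit (0.67 and 0.48), Lsamp, an IgLON adhesion protein (0.77 and 0.52), and Itgb1, the integrin beta chain, with susceptible mice, and Lrp1, a lipoprotein receptor (0.79 and 0.53), Stxbp5 and Erc1 of transmitter release with resilient mice. The early life stress site of Stxbp5 was higher in reads but not in the authors' enrichment over IgG (3.23 in stressed and 3.93 in control libraries).

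Lists with no pair in any comparison were axon guidance (35 genes), medium spiny neuron identity (26), immediate early genes (15), and the markers of astrocytes (10), oligodendrocytes (10), microglia (8) and vascular cells (8). With 1.0% of all genes holding a pair, none in lists of this size is near that share. The axon guidance genes are much longer, however (median 231 kb, against 17.4 kb for all genes), and the part of gene length was not tested. Of 30 genes of cAMP, kinase and calcium signalling, 3 held pairs, Plcb1, Rgs7 and Dgkb. Rgs7, a regulator of Gi signalling in striatal neurons, was lower after early life stress (-0.73 ± 0.17) and higher in susceptible mice (0.42 ± 0.13).

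Pairs of both kinds were held by 14 genes: Lrp1b, Grid1, Cntnap5a, Dgkb, Mbd5, Pcnx, Smarcal1, Tut4, Ube2w, Duxf3, Hjurp, Tmem267, Zfp600 and Zfp979. Lrp1b, a giant lipoprotein receptor gene, had 7 pairs over 6 early life stress sites spread from 41039801 to 42555200 on chromosome 2. The CSDS groups of Lrp1b were apart at 2 of its 7 CSDS sites. Its 4 opposite pairs were all lower after early life stress and higher in susceptible mice (at the leading pair -0.71 ± 0.11 and 0.45 ± 0.11), while 1 susceptible pair was higher in both (0.78 and 0.38) and its 2 resilient pairs were higher in both (0.75 and 0.48) and lower in both (-0.79 and -0.49). In Grid1, a delta glutamate receptor, 1 early life stress site was higher (0.80), beside higher susceptible (0.37) and resilient (0.48) sites, and another was lower (-0.72 ± 0.10) beside a higher susceptible site (0.33 ± 0.18). Cntnap5a, a contactin-associated protein, likewise had 1 site higher in all 3 tables (0.67, 0.39 and 0.46) and 1 lower after early life stress beside a higher susceptible site (-0.72 and 0.37).

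At the 31 early life stress sites near both susceptible and resilient sites the 3 values can be set side by side, with the CSDS controls shared. Dgkb, a diacylglycerol kinase of striatal neurons, had different CSDS directions there (chromosome 12, 38606301 to 38607300). Early life stress libraries held 77.98, 55.99 and 42.07 reads against 97.81, 92.33 and 95.89 (-0.70 ± 0.26). Susceptible libraries held 124.47, 121.01, 108.90 and 109.43 against 81.84, 97.93, 70.40 and 79.89 (0.49), and resilient libraries, at a site that overlaps the susceptible one in part, held 103.01, 111.95, 89.18 and 78.04 against 126.35, 113.78, 133.03 and 123.55 (-0.38). No stressed library overlapped a control in the 3 tables, but the same control libraries read lower at the susceptible than at the resilient site, so the 2 sites are not the same interval. At the resilient site the authors' enrichment over IgG was 2.67 in resilient and 2.44 in control libraries. The resilient group was thus lower in reads but not in enrichment. Zfp979, one of a family of near-identical zinc finger genes, also had a lower susceptible (-0.25) and a higher resilient (0.21) site.

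Sites with small ratios stood apart. Of the 325 sites, 52 (16%) had an absolute early life stress log2 ratio under 0.2, against 1.14% of all early life stress sites, and 42 of the 52 susceptible pairs they formed were intergenic. Crowded loci with 4 or more sites were the zinc finger blocks of chromosome 4 (6 sites at Zfp992 and 8 around Zfp978, Zfp982 and Zfp988), 6 sites at Atg7 and Hrh1 on chromosome 6, 9 near Gm38393 on chromosome 7 and the 6 of Ide, together 35 sites of which 26 had such small ratios. Copy number and mappability were not measured. Reads at near-identical copies can be divided between them, so values at Zfp600, Zfp979, Zfp992, Duxf3, Hjurp, Sfi1 and Tmem267 are uncertain. At Zfp992, for example, early life stress libraries held 238.53, 243.55 and 239.49 reads against 228.23, 230.33 and 243.22, which overlap, although the authors' deposited table gives an adjusted p of 7.81e-07. Next to Gm10800 on chromosome 2 a CSDS site held 184161.21 to 234417.72 reads per library in the susceptible table, with a log2 ratio of 0.02, and its early life stress neighbour had a ratio of 1.09.

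H3K27me2, the dimethyl form, was called different within 1000 bases at 28 of the 325 sites (8.62%), against 2.09% of the other early life stress sites. Of these 28 sites, 23 had an early life stress ratio under 0.2 in size. Most of the 28 lay at Duxf3, Sfi1, Tmem267, Zfp600, Hjurp and Zfp992, whose values are uncertain, or in the crowded loci near Zfp988 and Gm38393. Whether the 2 marks go together outside such loci was not tested. The dimethyl sites beside them were mostly lower: 8 of 9 in susceptible and 22 of 23 in resilient mice, where 30.6% and 20.5% of all autosomal H3K27me2 sites of those tables were lower. At Tmem267, for example, H3K27me2 gave a log2 ratio of -0.28 in susceptible mice beside an H3K27me1 early life stress ratio of 0.10.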

How the data were processed

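CUT&RUN libraries for H3K27me1 were taken from the nucleus accumbens (18 libraries in 5 groups), and H3K27me2 sites of the CSDS cohort were used as positions beside them. The submitters' processing notes name mm10 and, with no role or order, MACS2 2.2.6, SAMtools 1.10, Bowtie2 2.4.1, cutadapt 2.10 and Trim Galore 0.6.5. Per the file headers, the authors called sites with diffReps 1.55.4 (1000-base windows moved by 100 bases, fragments of 100 bases, p up to 0.0001). The headers name a negative binomial test for early life stress and a G-test for CSDS; a G-test adds up the reads of all libraries in a group, so library spread does not enter it. Each deposited p-value was adjusted by the authors with the Benjamini-Hochberg method, over 1287727 windows for early life stress, 270324 for susceptible and 275586 for resilient H3K27me1.

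The deposited values are a signal: per library, reads in the site scaled by a constant from the headers, and undoing the scaling gave whole numbers (within 0.1) for all values under 500. Deposited log2 fold changes compare group means, and the deposited enrichment is a ratio over IgG; both are the authors'. The tables hold only windows past the authors' limit, so no new test was run on them, and other windows were not analysed here.

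Sites were paired when at most 1000 bases lay between them on an autosome. Each pair took the protein-coding gene (21951 in GENCODE M21, build GRCm38) that held most of the early life stress site. Log2 ratios were computed from group means of normalised reads, with SD and SE over libraries, in Python 3.11.15, pandas 2.3.3 and numpy 2.4.6; the pairing was tested on simulated data. Where nothing says that libraries came from separate animals, their spread may be technical. Members, lists and rules were chosen with earlier results of these data known. Named genes were the 8 of smallest authors' adjusted p (the larger of the pair) in each of 4 classes, without predicted symbols or sites under 10 reads, up to 4 genes of each list, all genes with pairs of both kinds and the 3 with most pairs. Results of 2 genes are not reported here. Alternatives were other distances, thresholds, filters, counting units, group medians, a pseudocount of 1 and leaving out each library.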

Additional observations from a re-analysis of the deposited data

Results flagged for a closer look

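Among 114 groups of 4 CSDS libraries at named sites, 5 held 1 library far from the other 3 of its group; chance alone gives about 1 in 20 such groups. At the Pcnx pair that was higher in both cohorts, susceptible library 32 held 95.59 reads, below the other susceptible libraries. At Map3k4, resilient library 27 held 110.67 reads, below the other 3, and overlapped the controls. At Taf4, control library 34 held 99.93 reads, below the other 3 controls. At Pdcd6ip, resilient library 36 held 234.11 reads, above the other resilient libraries. At Grm3, control library 31 held 71.47 reads, below the other 3 controls.

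Every stressed library lay beyond every control library in both cohorts, but in opposite directions, at 79 early life stress and susceptible pairs and at 24 early life stress and resilient pairs. The same separation in the same direction was found at 35 susceptible and 24 resilient pairs. Over all sites of single comparisons, the groups did not overlap at 98.8% of early life stress, 52.8% of susceptible and 54.7% of resilient sites. These differences between cohorts were not tested, and the cohorts differ in depth, library numbers and the authors' test as well as in the stress.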

How the results depend on the processing

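Requiring an overlap of at least 1 base in place of a distance of up to 1000 left 182 of the 325 sites and lowered the same-way share of susceptible pairs from 34.5% to 26.4%; the first follows from the stricter rule and the cause of the second was not tested. Under the other alternatives run, the susceptible share lay between 30.3% (within 500 bases) and 34.9%, the resilient share between 46.2% (counted by gene) and 54.4%, and the share of sites higher after early life stress between 37.5% (in genes only) and 42.2%. Leaving out 1 library at a time gave 34.1% to 34.9%, 52.6% to 54.4% and 41.2% to 42.2%. The limits on small ratios, on genes, on separated libraries and on crowded loci were chosen after seeing the data. Of 115 ratios at named sites, 112 kept their sign under every setting. The other 3 were early life stress ratios near 0 that changed sign when 1 library was left out, with ranges of -0.0132 to 0.0736 at Hjurp (below 0 without library 40), -0.0212 to 0.0695 at Zfp600 (without library 44 or 45) and -0.0125 to 0.0747 at Stam2 (without library 40 or 41). A site enters a table only if it passed the authors' limit with all libraries, so leaving out a library does not show whether it would still be called.

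No paired analysis was possible because the library numbers in the labels are unique to each library and pair no samples across groups, and no test was made. The early life stress libraries had fewer reads per bin, which limits the precision of their ratios.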
